A study of Mus musculus with 12 samples.

Results

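The genes described here are 32 named glycolysis and hypoxia-response genes among the 48709 genes of the deposited count matrix of mouse embryonic fibroblasts. They were taken by name: transporters of glucose and lactate, the enzymes from hexokinase to lactate dehydrogenase, the pyruvate dehydrogenase kinases, the regulators of fructose bisphosphate, the hypoxia factor Hif1a with the oxygen sensors Egln1 and Egln3, and the hypoxia targets Bnip3 and Vegfa. All 32 were found once and all 32 passed the filter on low counts, Slc2a3 through 4 of the 12 libraries alone.

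The study asked how IMP2, an RNA-binding protein encoded by Igf2bp2 that reads m6A-marked RNA, bears on the response to the inflammatory cytokine IL-17. Fibroblasts were wild type, of strain C57BL/6, and came from embryos of day 12.5 to 13.5. Every group was transfected with an siRNA and had its medium changed 24 h later, so no group shows untransfected cells. The siIMP2_IL17 group received the IMP2 siRNA and then 200 ng/mL of IL-17 for 8 h, and the siIMP2 group received the IMP2 siRNA and no stimulus. The siControl_IL17 group received a control siRNA and the same IL-17, and the siControl group received the control siRNA and no stimulus. Each group had 3 libraries, 12 in all. The labels do not say whether replicates are separate cultures or embryos. A p-value therefore weighs a difference only against the spread among these libraries, and that spread may be technical.

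Library totals ran from 33841054 to 44433699 counts. Igf2bp2 lay at 18.4 to 28.2 CPM in the 6 libraries with the IMP2 siRNA and at 134 to 167 CPM in the 6 with the control siRNA. The start of each title divides the libraries into an NA set (replicates 1 and 2 of every group) and an RB160 set (replicate 3 of every group), and the labels do not say what it marks. Mitochondrially encoded genes took 3.31 to 3.85% of counts in the RB160 set and 5.41 to 6.9% in the NA set. All 15 fibroblast markers were tested; their summed level was 34500 to 42978 CPM with the IMP2 siRNA and 31088 to 37658 CPM with the control siRNA, and 3 of the 15 rose and 9 fell with the IMP2 siRNA. The macrophage list summed to 3.89 to 6.39 CPM with Adgre1, C1qb, C1qc and Fcgr1 at 0, the endothelial list to 3.03 to 5.58 CPM with Cldn5 at 0, and the erythroid list to at most 0.234 CPM. Epithelial markers summed to 50.9 to 207 CPM with the IMP2 siRNA and 38 to 126 CPM with the control siRNA. Of 4 tested markers, 3 were higher and 1 lower. Group medians were 159 CPM in siIMP2_IL17, 186 in siIMP2, 84.3 in siControl_IL17 and 114 in siControl. The lowest libraries were at 50.9, 69.3, 38 and 41.7 CPM, in the same order of groups. Chondrocyte and osteoblast markers summed to 176 to 423 CPM with the IMP2 siRNA and 207 to 699 CPM with the control siRNA; group medians were 187 CPM in siIMP2_IL17, 178 in siIMP2, 236 in siControl_IL17 and 226 in siControl, and 1 of 6 tested markers fell. Neural markers summed to 431 to 1000 CPM with the IMP2 siRNA and 320 to 996 CPM with the control siRNA. Of 5 tested markers, 1 was higher and 3 lower. Group medians were 980 CPM in siIMP2_IL17, 956 in siIMP2, 970 in siControl_IL17 and 982 in siControl. The lowest library of each group lay far below, at 431, 436, 320 and 344 CPM in the same order. Skeletal muscle markers summed to at most 2.49 CPM. These marker calls are for the IMP2 siRNA averaged over both IL-17 states, where 24.1% of all tested genes rose and 25.3% fell. The part of any of these lists in the results was not tested. In these bulk libraries, fewer cells of a type and less RNA per cell cannot be told apart.

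Glycolysis splits glucose into pyruvate in the cytosol, first spending and then regaining ATP. Pyruvate is either reduced to lactate by lactate dehydrogenase and exported, or carried into mitochondria and oxidised by pyruvate dehydrogenase, which the pyruvate dehydrogenase kinases switch off. Hypoxia-inducible factor, whose alpha subunit is encoded by Hif1a, is hydroxylated and destroyed when oxygen is plentiful, by enzymes of the Egln family; when oxygen is scarce it raises transcription of many glycolytic enzymes, of Vegfa and Bnip3 and of some Egln genes. Cultured fibroblasts are known for active glycolysis even with oxygen present.

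Hypoxia-inducible factor binds DNA at short sites whose core is ACGTG or GCGTG, so the upstream sequences of the members were searched for both cores on both strands. Of the 32 members, 31 had a promoter in the RefSeq table (build GRCm38.p6); Slc2a3 had none. Not every start in that table is the 5′ end of the annotated gene: the bases after the start were found in an annotated transcript for 23 of the 31, and the starts used for Aldoa, Hif1a, Ldha, Gapdh and Slc16a3 lay 8661, 6492, 4329, 694 and 587 bases from the gene's 5′ end. The counts that follow describe the windows at these starts, 1 per member. Shares of all promoters count every listed start, so a gene with several starts counts several times. In the 250 bases before the start, 24 of 31 members (77.4%) held at least 1 core, and 38.6% of all 32851 promoters did. Median GC content of the same windows was 62.4% for the members and 52.4% for all promoters. The longer palindrome CACGTG contains ACGTG and is bound by other factors such as Myc. It was present in 6 of the 31 member windows, a larger share than the 6.02% of all windows. A core was present in 11 of the 15 members that rose with the IMP2 siRNA, in 5 of the 7 that fell and in 8 of the 9 others. A match of letters is a description and not a bound site. The windows of the members with the smallest p-values in each direction of the IMP2 siRNA comparison are shown 5′ to 3′, with capitals marking the cores. They cover Gapdh at chr6:125165774-125166023, Egln3 at chr12:54203875-54204124, Ldhb at chr6:142507958-142508207 and Pdk4 at chr6:5496310-5496528, all on the minus strand, with 31 exon bases left out at the end of the Pdk4 window. Gapdh and Egln3 rose and Ldhb and Pdk4 fell.
Gapdh: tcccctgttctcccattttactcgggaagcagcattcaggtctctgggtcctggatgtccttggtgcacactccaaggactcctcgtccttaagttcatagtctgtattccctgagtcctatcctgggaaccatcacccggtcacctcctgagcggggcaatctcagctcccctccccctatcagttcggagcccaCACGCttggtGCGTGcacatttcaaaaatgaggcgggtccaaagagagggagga
Egln3: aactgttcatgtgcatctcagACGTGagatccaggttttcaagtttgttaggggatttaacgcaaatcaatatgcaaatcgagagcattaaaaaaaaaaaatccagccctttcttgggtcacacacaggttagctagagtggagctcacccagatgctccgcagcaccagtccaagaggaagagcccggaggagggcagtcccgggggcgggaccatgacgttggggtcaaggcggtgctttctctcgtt
Ldhb: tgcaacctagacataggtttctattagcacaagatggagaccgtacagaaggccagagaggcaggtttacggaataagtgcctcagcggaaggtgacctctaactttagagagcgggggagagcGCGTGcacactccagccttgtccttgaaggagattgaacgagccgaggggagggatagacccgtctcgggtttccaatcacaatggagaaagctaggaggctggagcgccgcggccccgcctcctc
Pdk4: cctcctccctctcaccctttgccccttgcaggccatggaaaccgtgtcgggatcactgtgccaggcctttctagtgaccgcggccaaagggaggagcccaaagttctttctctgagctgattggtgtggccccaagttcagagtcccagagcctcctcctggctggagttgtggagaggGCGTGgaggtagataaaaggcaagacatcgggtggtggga

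The Gapdh window held 2 cores, near its downstream end, and the other windows shown held 1 each. The Gapdh window lay within the span of a longer annotated transcript of the gene, outside annotated exons.

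Levels are given as TMM-scaled CPM per kilobase of exon (CPM per kb), CPM being counts scaled to a common library size, which allows genes to be compared. In siControl the pyruvate kinase gene Pkm was the highest member, at 841 ± 271 CPM per kb, followed by Gapdh at 451 ± 143 CPM per kb (SD, n = 3 each). Pgam1, Pgk1, Ldha, Eno1, Tpi1 and Aldoa followed, with means of 223, 223, 207, 191, 154 and 135 CPM per kb. The median of all tested genes in the same group was 5.13 CPM per kb, and 23 members lay above it. At the other end, the monocarboxylate transporter gene Slc16a3 averaged 0.714 ± 0.0674 CPM per kb, Aldoc 0.0897 ± 0.0337 and the glucose transporter gene Slc2a3 0.0353 ± 0.0406 (SD, n = 3 each). Of the 31 pairs of neighbours in this order, 24 overlapped in their siControl libraries when these were pooled. Within single libraries, 17 of the 31 pairs kept one order in all 3 siControl libraries, Pkm above Gapdh among them, and 14 did not. Pairs that did not overlap were Gapdh above Pgam1, Aldoa above Ldhb, Egln1 above Pdk3, Pdk3 above Pdk4, Eno2 above Pfkfb3, Egln3 above Slc16a3, and Slc16a3 above Aldoc.

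With the IMP2 siRNA, averaged over both IL-17 states, 15 of the 32 members rose and 7 fell at an adjusted p under 0.05 (edgeR's quasi-likelihood test over 13702 genes, title set as a term). Over all tested genes 24.1% rose and 25.3% fell. The share of members that rose was above that background, and the share that fell was close to it. The members were chosen with earlier results of these data known, so these shares are a description and not a test. The median log2 fold change was 0.09 for the members and -0.00 for all tested genes. Of the 6 enzymes of the energy-yielding steps of glycolysis, 5 rose and Eno2 fell, and of the 4 pyruvate dehydrogenase kinases, 3 fell and Pdk2 did not pass. Lactate dehydrogenase divided, with Ldha higher and Ldhb lower. Without IL-17, siIMP2 against siControl gave 14 members higher and 5 lower, with 16.1% of all genes higher and 16.7% lower. After IL-17, siIMP2_IL17 against siControl_IL17 gave 12 higher and 6 lower, with 16.7% of all genes higher and 16.7% lower. Without the title-set term, 6 members passed on average, 1 without IL-17 and 1 after it. Calls over all 13702 genes also fell in that fit. On average 814 genes were higher and 852 lower, against 3307 and 3470 with the term. Without IL-17 there were 137 higher and 184 lower, and after it 133 and 194. Ldhb and Pdk4 were the 2 members whose libraries with either siRNA did not overlap over all 12 libraries, against 8.6% of all tested genes. Within each title set taken alone 13 members did not overlap in either, against 31% of all genes; for 12 of the 13 the direction was the same in both sets, against 29.3% of all genes, and for Pfkfb4 it was opposite.

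**Figure D1:**
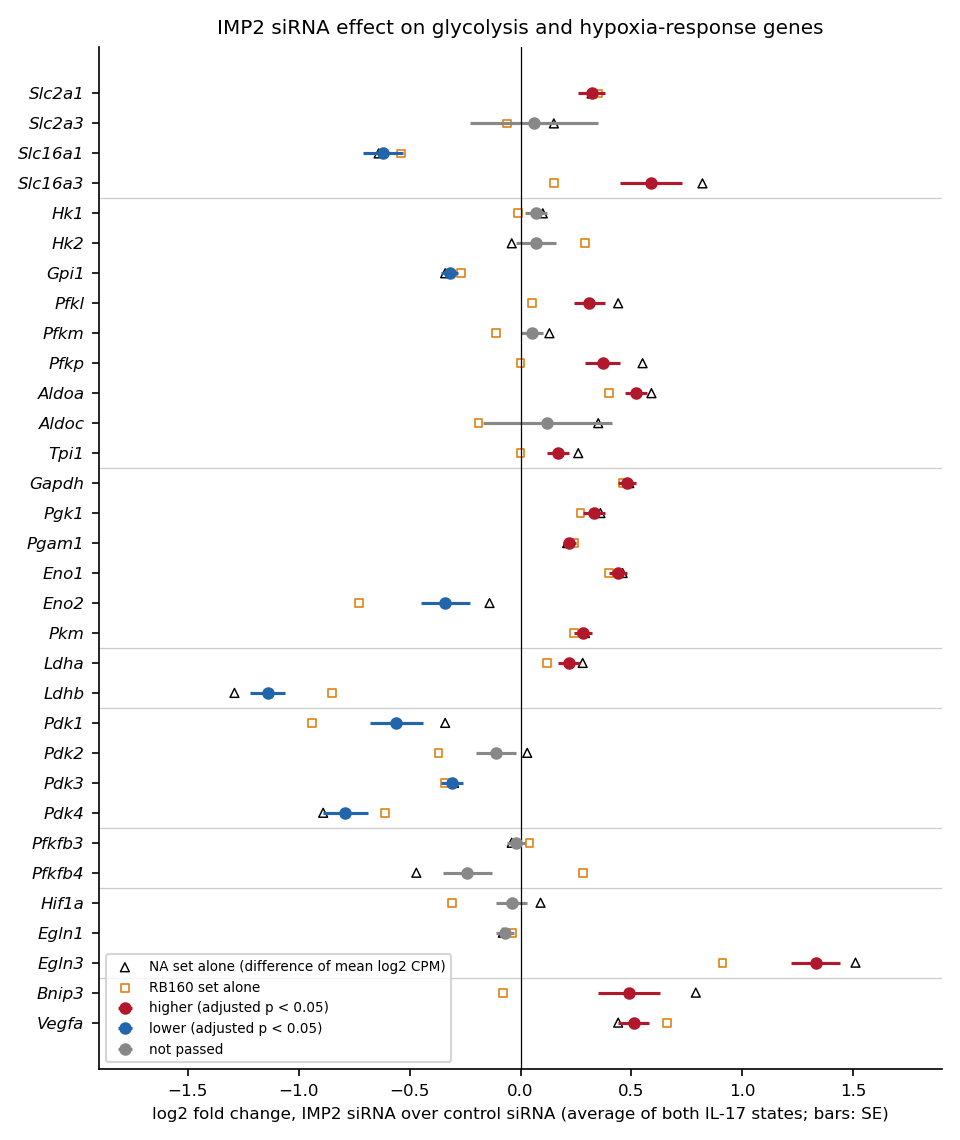
Log2 fold change of each member with the IMP2 siRNA over the control siRNA (x axis, filled circles, bars SE, 6 libraries against 6), members grouped by role down the page; red marks higher, blue lower and grey not passed at adjusted p under 0.05. Open triangles and squares give the NA set and the RB160 set alone as differences of mean log2 CPM: they lie close together for Gapdh, Eno1 and Slc2a1 and apart for Bnip3 (NA 0.79, RB160 -0.08) and Pfkp (NA 0.55, RB160 0.00).

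Among transporters, Slc2a1, the main glucose carrier of fibroblasts, was at 44.5, 45.1 and 28.2 CPM per kb in siIMP2_IL17, 41, 41.2 and 21.7 in siIMP2, 40.2, 33.2 and 22.7 in siControl_IL17, and 33.9, 31.1 and 16.7 in siControl. RB160 libraries were the lowest of each group, the NA libraries separated by siRNA, and the RB160 libraries overlapped. Slc2a1 rose by 0.32 ± 0.06 on the log2 scale (SE; edgeR adjusted p = 0.000457). Slc16a1, which carries lactate and other monocarboxylates, was at 5.76, 5.02 and 9.18 CPM per kb in siIMP2_IL17, 5.75, 5.2 and 8.46 in siIMP2, 8.5, 9.41 and 17.6 in siControl_IL17, and 8.27, 7.73 and 9.38 in siControl. Replicate 3 of siControl_IL17 stood well above every other library, and within each set the siIMP2 libraries lay below the siControl libraries. Slc16a1 fell by 0.62 on the log2 scale (SE 0.09, edgeR adjusted p = 7.95e-05).

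Slc16a3 encodes the transporter best known for lactate export from glycolytic cells. Its levels were 1.28, 1.27 and 1.26 CPM per kb in siIMP2_IL17, 1, 1.29 and 0.934 in siIMP2, 0.729, 0.631 and 1.2 in siControl_IL17, and 0.683, 0.668 and 0.792 in siControl. Replicate 3 of siControl_IL17 was again the one control library among the siIMP2 values. Slc16a3 rose by 0.59 ± 0.14 on the log2 scale (SE, edgeR adjusted p = 0.00343). The share of Slc16a3 in the summed level of both lactate carriers was 9.94 to 20.2% in the 6 libraries with the IMP2 siRNA. In the 6 with the control siRNA it was 6.29 to 7.95%, and these ranges do not overlap. Both genes passed, in opposite directions, so the share follows from those calls, and it was given no test. Slc2a3, a high-affinity glucose carrier of neurons and blood cells, was the lowest member, at 0.00433 to 0.0884 CPM per kb, and its difference of 0.06 ± 0.29 on the log2 scale did not pass (edgeR adjusted p = 0.971).

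In the earlier steps of the pathway, up to the triose phosphates, 4 of 9 members rose, 1 fell and 4 did not pass. Aldoa, the main aldolase outside liver and brain, was at 240, 241 and 142 CPM per kb in siIMP2_IL17, 223, 232 and 140 in siIMP2, 175, 146 and 112 in siControl_IL17, and 151, 152 and 101 in siControl. Within each title set every siIMP2 library was above every siControl library. Aldoa rose by 0.52 ± 0.05 on the log2 scale (SE, edgeR adjusted p = 2.93e-06). Gpi1, which turns glucose phosphate into fructose phosphate, was at 66.5, 63.5 and 38.1 CPM per kb in siIMP2_IL17, 61.4, 58.3 and 38.7 in siIMP2, 83.8, 76.9 and 46 in siControl_IL17, and 75.3, 80 and 46.4 in siControl. It was the one enzyme of these steps that fell, by 0.32 on the log2 scale (SE 0.04, edgeR adjusted p = 3.22e-05), and it too separated within each set.

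Phosphofructokinase commits sugar to glycolysis and has liver, muscle and platelet forms. Pfkl, the liver form, was at 45.4, 46.6 and 25.8 CPM per kb in siIMP2_IL17, 40.7, 42.4 and 23.9 in siIMP2, 36.3, 31.5 and 27.8 in siControl_IL17, and 30.4, 30.7 and 20.6 in siControl. Pfkp, the platelet form, was at 13.6, 13.7 and 7.35 CPM per kb in siIMP2_IL17, 13.3, 14.2 and 7.63 in siIMP2, 10, 8.77 and 7.91 in siControl_IL17, and 9.49, 9.25 and 7.05 in siControl. For both genes the NA libraries separated by siRNA and the RB160 libraries did not. Pfkl rose by 0.31 ± 0.07 and Pfkp by 0.37 ± 0.08 on the log2 scale (SE, edgeR adjusted p = 0.00245 and 0.00265). Pfkp made up 22.2 to 25.2% of their summed level with the IMP2 siRNA and 21.6 to 25.5% with the control siRNA, ranges that overlap. Pfkm, the muscle form, ranged from 17.2 to 31.8 CPM per kb and its difference of 0.05 ± 0.05 did not pass (edgeR adjusted p = 0.468).

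Triose phosphate isomerase, Tpi1, was at 147 to 191 CPM per kb and rose by 0.17 ± 0.05 on the log2 scale (SE, edgeR adjusted p = 0.0117), although neither single comparison passed for it, with edgeR adjusted p = 0.0511 without IL-17 and 0.118 after it. The hexokinase genes Hk1 and Hk2, whose enzymes trap glucose in the cell, did not pass (edgeR adjusted p = 0.274 and 0.548). They differed by 0.07 ± 0.05 and 0.07 ± 0.09. Hk2 made up 28.8 to 40.7% of their summed level with the IMP2 siRNA and 22.3 to 38.7% with the control siRNA, ranges that overlap. Aldoc, the brain aldolase, was at 0.0656 to 0.175 CPM per kb, too low for more than a loose estimate of 0.12 ± 0.29.

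In the later steps, Gapdh (ENSMUSG00000057666, chr6:125161715-125166467, mm10, minus strand) had the smallest p-value of the members that rose. It was at 742, 749 and 384 CPM per kb in siIMP2_IL17, 746, 740 and 396 in siIMP2, 555, 501 and 283 in siControl_IL17, and 525, 541 and 286 in siControl. The RB160 libraries ran far below the NA libraries, and within each set all siIMP2 libraries were above all siControl libraries. Gapdh, which oxidises glyceraldehyde phosphate and is often used as a constant reference, rose by 0.48 ± 0.04 on the log2 scale, 1.39-fold (SE, edgeR adjusted p = 4.19e-07), with 0.49 in the NA set and 0.46 in the RB160 set. Pgk1, the first ATP-yielding enzyme, was at 322, 328 and 254 CPM per kb in siIMP2_IL17, 323, 309 and 232 in siIMP2, 264, 245 and 227 in siControl_IL17, and 249, 240 and 179 in siControl, and rose by 0.33 ± 0.05 on the log2 scale (edgeR adjusted p = 6.97e-05). Its replicate 3 libraries were the lowest of each group, as for Gapdh.

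Eno1, the common enolase, was at 298, 309 and 183 CPM per kb in siIMP2_IL17, 285, 296 and 187 in siIMP2, 229, 203 and 143 in siControl_IL17, and 205, 230 and 137 in siControl. It rose by 0.44 ± 0.04 on the log2 scale (SE, edgeR adjusted p = 5.03e-06) and separated within each set. Eno2, the neuronal enolase, was at 2.38, 2.35 and 2.31 CPM per kb in siIMP2_IL17, 2.34, 2.92 and 2 in siIMP2, 2.52, 2.74 and 3.6 in siControl_IL17, and 2.88, 2.83 and 3.55 in siControl. Its 2 highest values were the RB160 control libraries. Eno2 fell by 0.34 on the log2 scale (SE 0.11, edgeR adjusted p = 0.0168), and the call was lost without replicate 3 of siIMP2 (adjusted p = 0.0507), without replicate 3 of siControl_IL17 (adjusted p = 0.0508) or in the NA set alone (adjusted p = 0.168). Pgam1, a phosphoglycerate mutase, and Pkm, pyruvate kinase, ranged over 174 to 295 and 538 to 1254 CPM per kb and rose by 0.22 ± 0.03 and 0.28 ± 0.04 (edgeR adjusted p = 0.000179 and 0.000209).

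Lactate dehydrogenase is built from subunits encoded by Ldha, favoured in glycolytic tissue, and Ldhb, favoured in oxidative tissue such as heart. Ldhb (ENSMUSG00000030246, chr6:142490249-142507957, mm10, minus strand) was at 38.9, 41.1 and 24.2 CPM per kb in siIMP2_IL17, 38.8, 40.4 and 30.4 in siIMP2, 95.1, 100 and 48.3 in siControl_IL17, and 94.6, 98.4 and 49.3 in siControl. The highest siIMP2 value lay below the lowest siControl value. Ldhb fell by 1.14 on the log2 scale, 2.2-fold (SE 0.08, edgeR adjusted p = 1.29e-07), the smallest p-value of all members. Ldha (ENSMUSG00000063229, chr7:46841475-46855627, plus strand) was at 288, 288 and 202 CPM per kb in siIMP2_IL17, 279, 271 and 192 in siIMP2, 243, 231 and 203 in siControl_IL17, and 227, 230 and 163 in siControl. Its RB160 libraries overlapped between the siRNAs and its NA libraries did not. It rose by 0.22 ± 0.05 on the log2 scale (SE, edgeR adjusted p = 0.00148). Ldhb made up 10.7 to 13.7% of the summed level of both subunits in the libraries with the IMP2 siRNA. With the control siRNA it made up 19.2 to 30.2%, and this share too follows from the calls of both genes. The summed level of both genes was 294 ± 59 CPM per kb in siIMP2_IL17, 284 ± 53.3 in siIMP2, 307 ± 48.3 in siControl_IL17 and 287 ± 65.4 in siControl (SD, n = 3 each), which lie within the spread of each other.

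**Figure D2:**
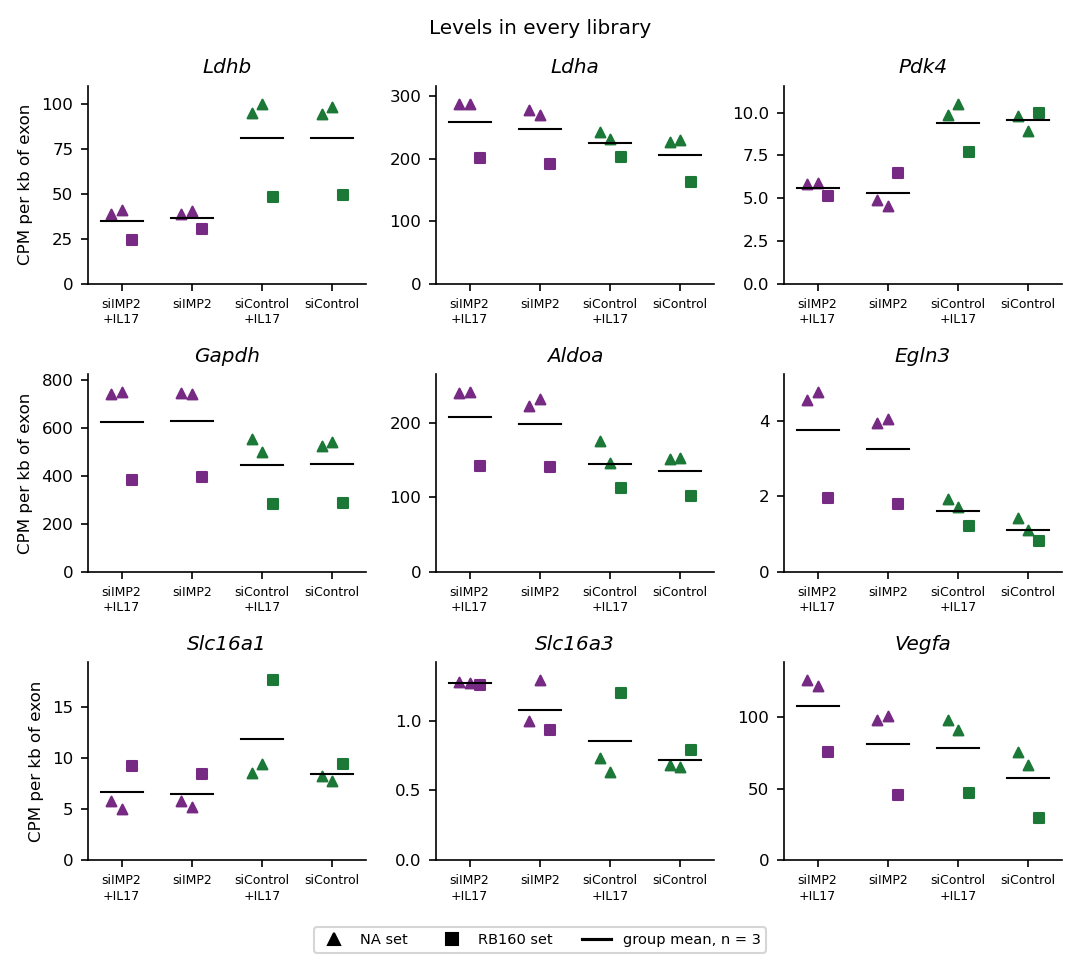
Level of 9 members in each library, in CPM per kb of exon on linear axes that start at 0; groups run from siIMP2_IL17 to siControl, triangles are NA and squares RB160 libraries, and bars are group means (n = 3). Ldhb and Pdk4 separate by siRNA in all 12 libraries, Gapdh, Aldoa and Egln3 separate within each set, and replicate 3 of siControl_IL17 stands at 17.6 CPM per kb for Slc16a1.

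All 4 pyruvate dehydrogenase kinase genes had negative estimates with the IMP2 siRNA, and 3 fell. Pdk4 (ENSMUSG00000019577, chr6:5483351-5496309, minus strand), known for its rise in fasting, was at 5.8, 5.89 and 5.11 CPM per kb in siIMP2_IL17, 4.9, 4.55 and 6.48 in siIMP2, 9.88, 10.5 and 7.7 in siControl_IL17, and 9.77, 8.92 and 10 in siControl. No siIMP2 library reached the lowest siControl library. Pdk4 fell by 0.79 on the log2 scale (SE 0.10, edgeR adjusted p = 2.11e-05). Pdk1, a known target of the hypoxia factor, was at 1.41, 1.33 and 1.29 CPM per kb in siIMP2_IL17, 1.25, 1.41 and 1.21 in siIMP2, 1.9, 1.77 and 3.04 in siControl_IL17, and 1.83, 1.4 and 1.89 in siControl. Replicate 3 of siControl_IL17 was again the highest library, and 1 siControl library fell among the siIMP2 values. Pdk1 fell by 0.56 on the log2 scale (SE 0.12, edgeR adjusted p = 0.00147).

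Pdk3 was at 8.11, 8.84 and 9.59 CPM per kb in siIMP2_IL17, 9.96, 8.81 and 10.6 in siIMP2, 10.4, 10.8 and 12 in siControl_IL17, and 11.2, 11.5 and 13.6 in siControl, and fell by 0.31 on the log2 scale (SE 0.05, edgeR adjusted p = 8.8e-05). Its siRNA groups separated within each set. Pdk2 ranged from 2.49 to 3.81 CPM per kb, and its estimate of -0.11 ± 0.09 did not pass (edgeR adjusted p = 0.326). Summed over the 4 kinases, the level was 18.7 ± 0.732 CPM per kb in siIMP2_IL17, 19.6 ± 1.41 in siIMP2, 25.7 ± 0.612 in siControl_IL17 and 26.9 ± 2.17 in siControl (SD, n = 3 each).

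Pfkfb3 and Pfkfb4 encode enzymes that make and remove the fructose bisphosphate that activates phosphofructokinase, and neither passed. Pfkfb3 ranged from 1.89 to 2.49 CPM per kb, with an estimate of -0.02 ± 0.04 on the log2 scale (edgeR adjusted p = 0.801). Pfkfb4 was at 3.05, 3.11 and 2.14 CPM per kb in siIMP2_IL17, 3.99, 4.04 and 2.48 in siIMP2, 4.28, 4.52 and 1.87 in siControl_IL17, and 5.05, 5.82 and 1.9 in siControl. In the NA set the siIMP2 libraries were the lower ones and in the RB160 set the higher ones. The pooled estimate for Pfkfb4 was -0.24 ± 0.11 (edgeR adjusted p = 0.104).

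Hif1a mRNA did not pass with the IMP2 siRNA. It was at 30.9, 33.1 and 35.7 CPM per kb in siIMP2_IL17, 29.4, 30.9 and 30.9 in siIMP2, 31.2, 31.8 and 49.1 in siControl_IL17, and 29.3, 24.6 and 34.4 in siControl. Replicate 3 of siControl_IL17 was the high library and the groups overlapped. The estimate was -0.04 ± 0.07 on the log2 scale (SE, edgeR adjusted p = 0.657). These are mRNA levels, and the protein, which oxygen mainly controls, was not measured.

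The oxygen sensors differed from each other. Egln3 (ENSMUSG00000035105, chr12:54178981-54203860, minus strand), a hydroxylase that is itself a target of the hypoxia factor, was at 4.57, 4.77 and 1.97 CPM per kb in siIMP2_IL17, 3.95, 4.06 and 1.79 in siIMP2, 1.92, 1.71 and 1.21 in siControl_IL17, and 1.42, 1.11 and 0.804 in siControl. The siRNA groups separated within each set, and over all libraries only the RB160 siIMP2 library at 1.79 overlapped with the control values. Egln3 rose by 1.33 ± 0.11 on the log2 scale, 2.51-fold (SE, edgeR adjusted p = 6.72e-07), the largest fold among the members. Egln1, the main oxygen sensor of most cells, ranged from 14.9 to 21.7 CPM per kb, with an estimate of -0.07 ± 0.04 that did not pass (edgeR adjusted p = 0.119). Egln3 made up 10.5 to 19.6% of the summed level of both in the libraries with the IMP2 siRNA and 5.06 to 8.67% in those with the control siRNA.

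Both other hypoxia targets rose. Vegfa (ENSMUSG00000023951, chr17:46016993-46032377, minus strand), which drives vessel growth, was at 126, 122 and 75.6 CPM per kb in siIMP2_IL17, 98.4, 101 and 45.5 in siIMP2, 98, 91.4 and 47.1 in siControl_IL17, and 75.9, 66.5 and 29.3 in siControl. Its RB160 libraries were the lowest of every group, and the siRNA groups overlapped. Vegfa rose by 0.51 ± 0.07 on the log2 scale with the IMP2 siRNA (SE, edgeR adjusted p = 4.23e-05). Bnip3, which acts in mitophagy, was at 17.7, 19.8 and 13.2 CPM per kb in siIMP2_IL17, 15.1, 16.5 and 10.1 in siIMP2, 11.1, 10.6 and 15.8 in siControl_IL17, and 9.58, 8.77 and 9.39 in siControl. Replicate 3 of siControl_IL17 lay among the siIMP2 values, and the NA libraries separated by siRNA. Bnip3 rose by 0.49 ± 0.14 (SE, edgeR adjusted p = 0.00891), with 0.79 in the NA set and -0.08 in the RB160 set.

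Other genes of the pathway were read from fixed lists in the same comparison, for which 24.1% of all genes rose and 25.3% fell. These lists too were chosen with earlier results of these data known, so their counts are a description and not a test. Of 37 further hypoxia targets tested, 19 rose and 5 fell, with a median log2 fold change of 0.15. By edgeR's test of the difference between title sets, their siRNA effect was more positive in RB160 libraries for 2 and more negative for 10. Over all genes 5.2% were called in that test. Ankrd37, an early hypoxia target, averaged 7.92 ± 4.04 CPM per kb in siIMP2_IL17, 8.57 ± 5.28 in siIMP2, 1.33 ± 0.0364 in siControl_IL17 and 1.47 ± 0.422 in siControl (SD, n = 3 each), and rose by 2.39 ± 0.23 on the log2 scale (edgeR adjusted p = 2.83e-06). Fam162a, another hypoxia target, rose by 0.47 ± 0.06 (edgeR adjusted p = 4.34e-05). Ankrd37 had 2.81 in the NA set and 1.35 in the RB160 set, and Fam162a had 0.59 and 0.25. Of 16 hypoxia regulators, 4 rose and 5 fell; Siah2, a ubiquitin ligase that acts on Egln enzymes, rose by 0.38 ± 0.06, and Cited2, which competes with the hypoxia factor for its coactivator, fell by 0.39 (SE 0.10; edgeR adjusted p = 0.00012 and 0.00535). Cited2 had 0.05 in the RB160 set and -0.60 in the NA set.

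Of 13 further glycolytic isozymes tested, 7 rose and 6 did not pass, with the muscle enolase Eno3 rising by 0.95 ± 0.07 on the log2 scale (edgeR adjusted p = 4.01e-07). In the pentose phosphate pathway, which branches off for NADPH and ribose, 3 of 11 genes rose and 5 fell. Its entry enzyme G6pdx averaged 18 ± 4.96 CPM per kb in siIMP2_IL17, 17.1 ± 5.63 in siIMP2, 31.1 ± 5.63 in siControl_IL17 and 30.1 ± 5.23 in siControl (SD, n = 3 each), and fell by 0.83 on the log2 scale (SE 0.09, edgeR adjusted p = 5.63e-06), while transketolase, Tkt, rose by 0.60 ± 0.05 (edgeR adjusted p = 5.29e-07). Among 10 genes for pyruvate entry into mitochondria 1 rose and 3 fell; pyruvate carboxylase, Pcx, fell by 0.72 (SE 0.07, edgeR adjusted p = 2.39e-06). Among 16 genes of the tricarboxylic acid cycle 1 rose and 5 fell, with changes such as -0.32 ± 0.04 for Suclg2 and 0.22 ± 0.04 for Idh3a. Of 12 regulators of glycolysis 3 rose and 1 fell, Myc among those that rose, by 0.25 ± 0.08 (edgeR adjusted p = 0.0222), with 0.62 in the RB160 set, which has 1 library per group, and 0.07 in the NA set. Of the 2 tested genes of gluconeogenesis both rose, Pck2 by 0.54 ± 0.06 and G6pc3 by 0.21 ± 0.04.

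IL-17 moved few members. Averaged over both siRNAs, 3 of 32 rose and 29 did not pass, with 2.72% of all genes called in either direction. Vegfa rose by 0.48 ± 0.07 on the log2 scale (SE, edgeR adjusted p = 0.00212), and the library values given above show it higher with IL-17 in each title set with either siRNA. Hk2, the inducible hexokinase, was at 10.3, 12 and 9.83 CPM per kb in siIMP2_IL17 libraries, against 9.36, 9.92 and 6.42 in siIMP2 libraries. With the control siRNA it was at 12.1, 12 and 9.06 CPM per kb in siControl_IL17 libraries, against 9.2, 9.47 and 4.65 in siControl libraries. Its RB160 libraries without stimulus were the 2 lowest. Hk2 rose by 0.45 ± 0.09 on the log2 scale (SE, edgeR adjusted p = 0.0161), with 0.29 in the NA set and 0.79 in the RB160 set, and the call was lost without replicate 3 of siIMP2 (adjusted p = 0.0572). As a share of the summed level of Hk1 and Hk2, Hk2 made up 31.2 to 40.7% with IL-17 and 22.3 to 30% without. Slc2a1 rose by 0.24 ± 0.06 (SE, edgeR adjusted p = 0.0478), a call kept without replicate 1 of siControl or replicate 2 of siControl_IL17, lost in the other 10 fits that left out 1 library (highest adjusted p = 0.137) and lost in the NA set alone (0.15, adjusted p = 0.389).

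With the control siRNA, siControl_IL17 against siControl, Vegfa was the 1 member that passed, at 0.50 ± 0.10 on the log2 scale (SE, edgeR adjusted p = 0.0466), against 0.423% of all genes called. This call was kept without replicate 1 of siControl or replicate 3 of siIMP2_IL17 and lost in the other 10 fits that left out 1 library (highest adjusted p = 0.255). With the IMP2 siRNA, siIMP2_IL17 against siIMP2, edgeR called 0 of 32 members, with 0.511% of all genes called. Of the members, 4 had an unadjusted p under 0.05. DESeq2 called 1 member, and over all genes it called 96 higher and 74 lower. By limma-voom 0 members were called, with 42 genes higher and 22 lower over all genes. Vegfa was nearest, at 0.46 ± 0.10 (SE, edgeR adjusted p = 0.057). The difference between the IL-17 responses, with the IMP2 siRNA less with the control siRNA, was called for 0 members by edgeR, DESeq2 and limma-voom and for 0% of all genes by edgeR; 1 member, Slc16a1, had an unadjusted p under 0.05 (-0.39 ± 0.17). For Vegfa the difference was -0.03 ± 0.13 on the log2 scale and for Hk2 -0.20 ± 0.18. The counts at an unadjusted p under 0.05 have no share of all genes beside them and are not read as results about the members.

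**Figure D3:**
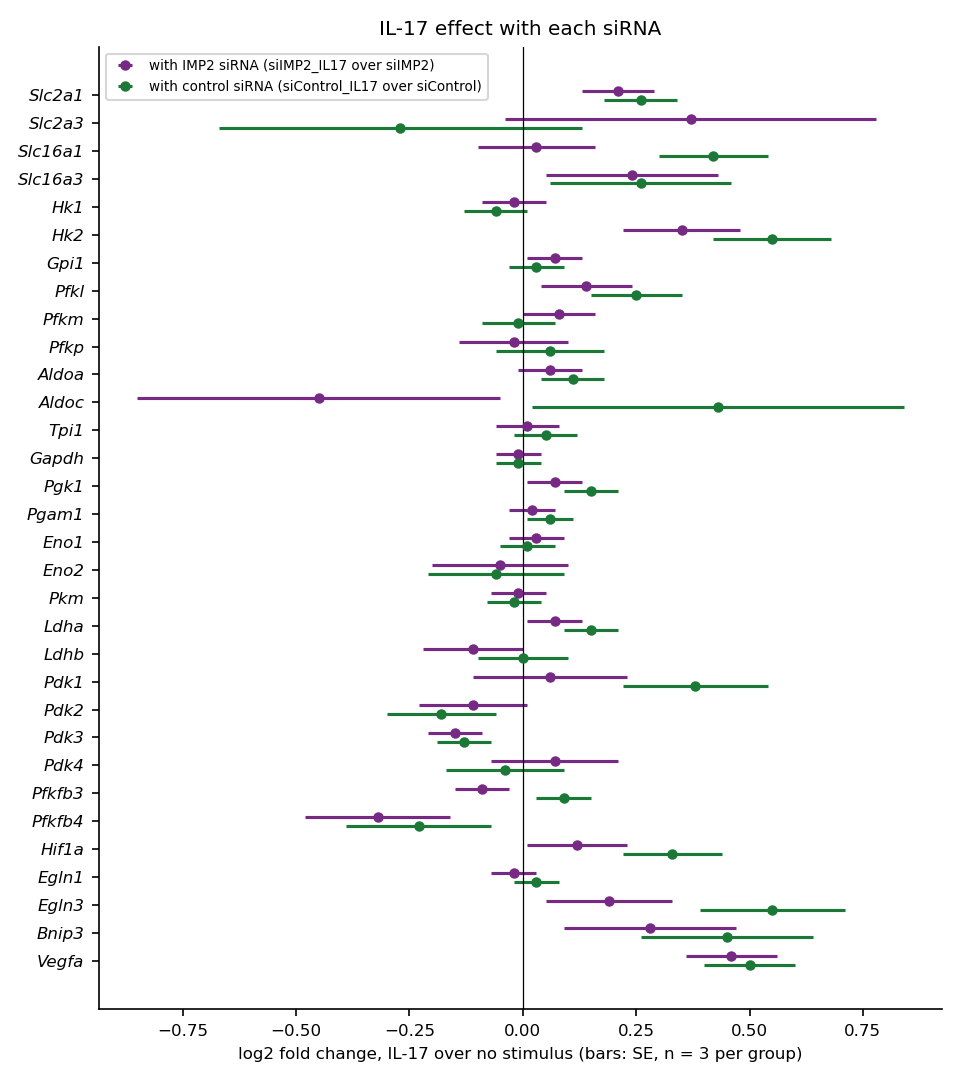
Log2 fold change with IL-17 over no stimulus (x axis, bars SE) for each member, in cells with the IMP2 siRNA (purple, upper) and with the control siRNA (green, lower), 3 libraries per group. Vegfa has 0.46 with the IMP2 siRNA and 0.50 with the control siRNA; most glycolytic enzymes lie near 0, and Slc2a3 and Aldoc have the widest bars.

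The title sets differed for 25 of the 32 members. In RB160 libraries against NA libraries, with group as a term, 21 members were lower and 4 higher, and 34.6% of all genes were lower and 34.9% higher (edgeR). The median log2 fold change was -0.44 for the members and 0.00 for all genes. On the log2 scale Vegfa had -1.03 ± 0.07, Pfkfb4 -0.98 ± 0.13, Egln3 -0.94 ± 0.12, Gapdh -0.92 ± 0.04 and Pkm -0.89 ± 0.05 (SE). Of the 4 higher members, Slc16a1 had 0.66 ± 0.09, Hif1a 0.30 ± 0.08 and Pdk3 0.20 ± 0.05. Slc2a3 was at 0.062 to 0.0884 CPM per kb in RB160 libraries and 0.00433 to 0.021 in NA libraries, or 19 to 29 counts in RB160 libraries and 1 to 5 counts in NA libraries. It passed the filter on low counts only through the RB160 set, so its call as the fourth higher member follows from that filter and is not a result. Members together took 0.694 to 0.831% of counts in RB160 libraries and 0.937 to 1.18% in NA libraries. The call of Tpi1 (-0.16) was lost without replicate 3 of siIMP2_IL17 (adjusted p = 0.0921) or of siIMP2 (adjusted p = 0.089).

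**Figure D4:**
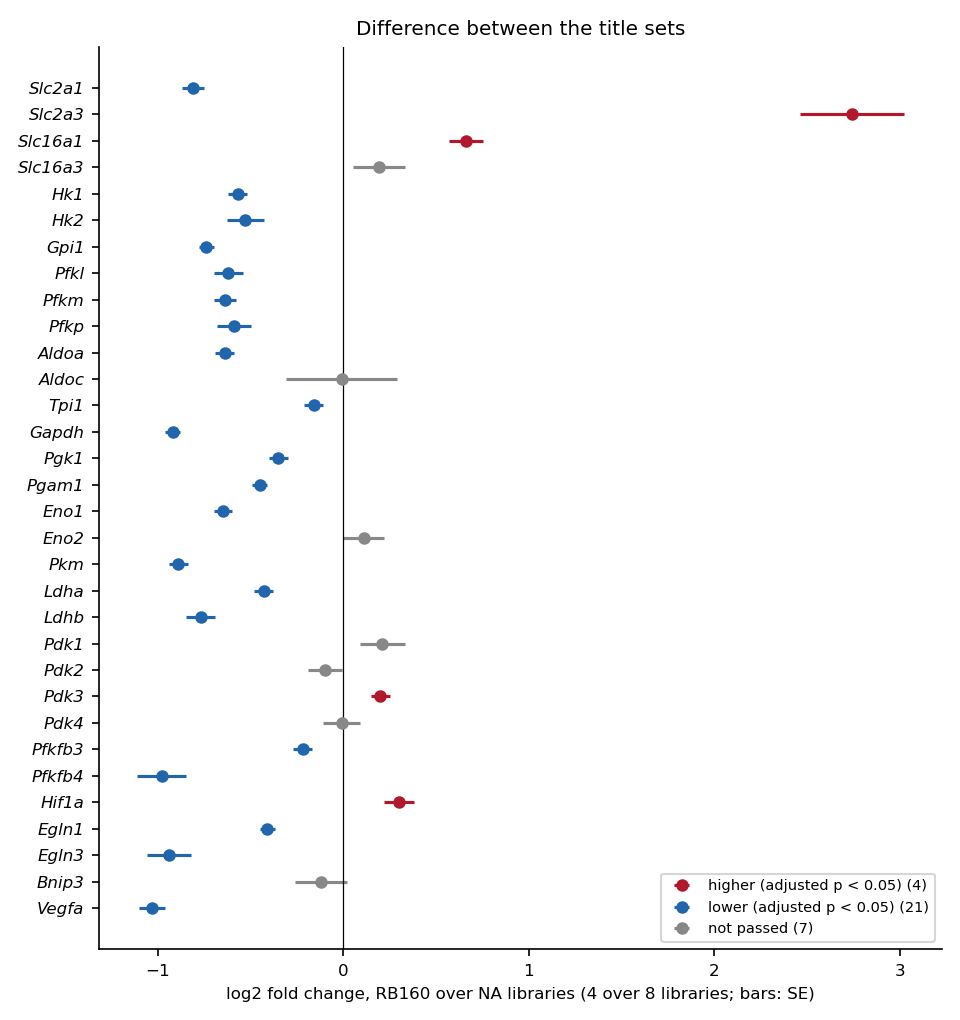
Log2 fold change of RB160 over NA libraries for each member (x axis, bars SE, 4 libraries over 8); blue marks lower, red higher and grey not passed at adjusted p under 0.05. Gapdh sits at -0.92 and Tpi1 at -0.16, and the point for Slc2a3 at 2.74 follows from the filter on low counts, which it passed through RB160 libraries alone.

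The size of the IMP2 siRNA effect itself differed between the sets for 6 of 32 members, with 5.2% of all genes called (edgeR, product of siRNA and title set). Bnip3, Pfkp, Pfkl and Eno2 had more negative effects in RB160 libraries, with differences of -0.88 ± 0.14, -0.55 ± 0.09, -0.39 ± 0.10 and -0.59 ± 0.14 on the log2 scale (SE). Ldhb and Pfkfb4 had more positive ones, with 0.44 ± 0.10 and 0.76 ± 0.13 (edgeR adjusted p = 0.0204 and 0.00513). For Ldhb both sets fell, with -1.29 in the NA set and -0.85 in the RB160 set; for Pfkfb4 the sets had opposite signs, -0.47 in the NA set and 0.28 in the RB160 set. The number of such members was 2 without replicate 3 of siIMP2_IL17 and 3 without replicate 3 of siIMP2. Over all genes, this test called 426 more positive and 286 more negative in the full fit. It called 81 and 49 without replicate 3 of siIMP2_IL17, and 232 and 140 without replicate 3 of siIMP2. Bnip3 kept its call in all 12 fits that left out 1 library. The call was lost in 1 of them for Pfkp, in 2 for Pfkfb4, in 4 for Ldhb, in 5 for Eno2 and in 6 for Pfkl.

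Reads inside a gene's span but outside its exons, which come mostly from unspliced RNA and retained or unannotated parts, gave another readout of the same libraries. These made up 4.49 to 6.42% of reads, with replicate 3 of siControl_IL17 and of siIMP2_IL17 highest. Of the members 29 could be tested, and 11 were higher and 4 lower with the IMP2 siRNA. Over all genes 11.2% were higher and 11% lower. Without the title-set term 2 members passed, with 242 of all 12463 genes higher and 185 lower. Of the 21 members that passed in exons and were tested here, 11 (52.4%) also passed outside exons with the same sign. They made up 73.3% of the 15 calls outside exons. The matching shares over all genes were not taken, so these shares describe the members alone. Ldhb was at 84 to 387 such reads per library and fell by 1.39 on the log2 scale (SE 0.10, edgeR adjusted p = 1.32e-10). Gapdh rose by 0.61 ± 0.07 and Pdk4 fell by 0.96 (SE 0.17; adjusted p = 4.19e-07 and 0.000147). For Slc16a1 the estimate was -0.61 ± 0.22, beside -0.62 in exons, and did not pass (adjusted p = 0.0515).

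Several members had other values outside exons than in them. Gpi1 fell by 0.32 in exons and had 0.23 ± 0.08 outside them (edgeR adjusted p = 0.0532), and Pdk1 fell by 0.56 in exons and had 0.40 ± 0.22 outside (adjusted p = 0.211). Egln1 and Hk1 did not pass in exons and were higher outside, by 0.44 ± 0.13 and 0.30 ± 0.10. Hif1a and Pfkfb4 did not pass in exons and were lower outside, with -0.24 ± 0.09 and -0.29 ± 0.09 (adjusted p = 0.0425 and 0.028). Leaving out 1 library at a time, the call outside exons was lost in 9 of 12 fits for Hif1a, in 7 for Pfkfb4 and in 5 for Hk1, and Egln1 kept it in all 12. Among members that passed in both readouts, it was lost in 9 for Ldha, in 7 for Pfkl, in 3 each for Aldoa and Pgk1 and in 1 for Slc2a1. The others that passed in both kept it in all 12. The differences between readouts were given no test. No source used here gives the use of strand in counting, so reads of antisense or overlapping genes could enter this readout.

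**Figure D5:**
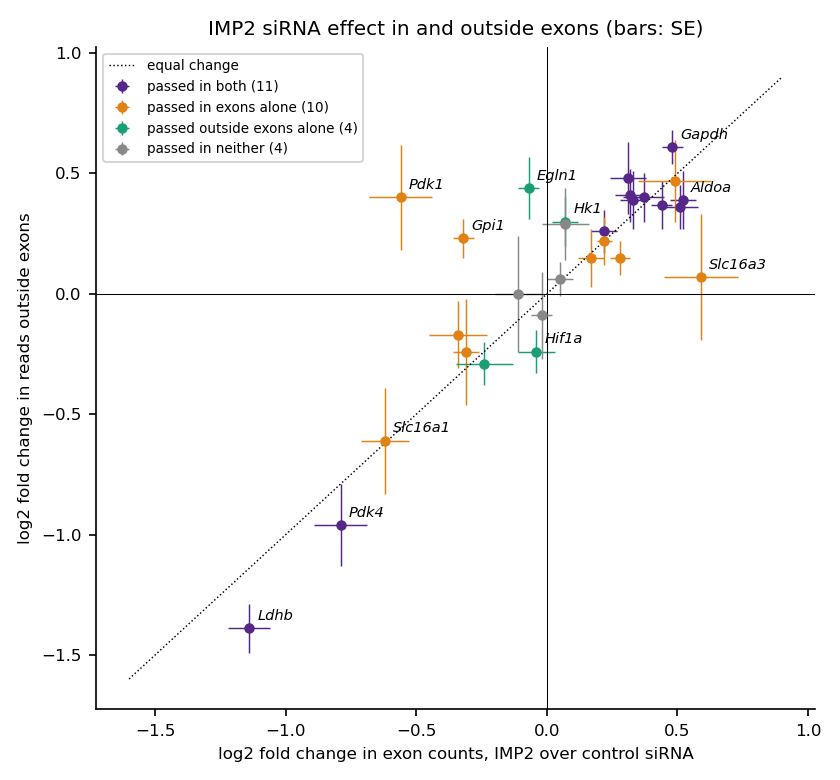
Log2 fold change with the IMP2 siRNA over the control siRNA in exon counts (x axis) and in reads outside exons (y axis) for the 29 members tested in both, with SE bars; colours show in which readout a member passed and the dotted line marks equal change. Ldhb and Pdk4 lie at the lower left in both, and Gpi1 and Pdk1 lie left of 0 in exons and above 0 outside.

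Several members have pseudogenes or close copies, and their reads can be shared. Reads that mapped uniquely made up 8.28% of all reads for Pgk1, 20.4% for Gapdh, 39.4% for Eno1, 44.2% for Bnip3, 49.1% for Slc2a1, 62.3% for Hif1a and 68.7% for Pgam1, and at least 95.8% for the rest. Uniquely mapped reads were counted both in and outside exons, so they differ from the exon counts in region as well as in uniqueness. On the log2 scale, uniquely mapped reads alone gave 0.47 ± 0.03 for Gapdh and 0.32 ± 0.05 for Pgk1 with the IMP2 siRNA. They gave 0.47 ± 0.05 for Eno1 and 0.51 ± 0.13 for Bnip3. These values lie within the SE of those from exon counts. Between the title sets Pgk1 had -0.05 with unique reads (edgeR adjusted p = 0.366) and -0.35 in exon counts, so its level across sets is uncertain. Other members with shared reads moved too. The part of the counted region in these differences was not tested. Hif1a had 0.48 ± 0.08 with unique reads and 0.30 in exon counts. Pgam1 had -0.58 ± 0.04 and -0.45, and Bnip3 0.07 ± 0.14 and -0.12. Eno1 had -0.73 ± 0.05 and -0.65, Gapdh -0.88 ± 0.03 and -0.92, and Slc2a1 -0.75 ± 0.07 and -0.81.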

How the data were processed

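The 12 libraries carry deposited counts, the authors' whole-number counts of reads per gene, without normalisation. Per the file headers, reads were trimmed pairs; per the submitters' processing notes, coordinates are mm10. No source used here gives the aligner, the counter or the use of strand. The authors' own comparisons were not used here.

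Groups and title sets came from the labels. R 4.3.3 with edgeR 4.0.16 fitted the exon counts: TMM factors, filterByExpr (minimum count 10, minimum total 15), a quasi-likelihood fit over 12 libraries with group and title set as terms, and Benjamini-Hochberg adjustment over all genes tested, at 0.05. Reads outside exons were the deposited total gene reads less the exon counts, fitted alike. For scale, 1 CPM stands for 31.9 to 50.9 reads. The fit was tested on simulated data. Figures used matplotlib 3.10.9 under Python 3.11.15, tables pandas 2.3.3.

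All 32 members are named; library values are printed for those called in a siRNA, IL-17 or interaction comparison with a log2 fold change of at least 0.3 in size, and for Hif1a, Gapdh, Slc2a1, Vegfa, Pdk1 and, beside Ldhb, Ldha. From each pathway list at most the 3 called members of smallest p are named. The members and lists were chosen with earlier results of these data known.

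As alternatives, normalisation used RLE or upper-quartile factors, and the tool was DESeq2 1.42.0 or limma-voom (limma 3.58.1). The filter was 1 count or 1 CPM in 3 libraries. Fits used no title-set term, the NA set alone, uniquely mapped reads in and outside exons, the compared groups alone or all libraries but 1. The prior count for log2 CPM was 2, or 0.5.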

Additional observations from a re-analysis of the deposited data

Results flagged for a closer look

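For 6 members the effect of the IMP2 siRNA differed between the title sets by the test of that difference (edgeR, product of siRNA and title set), given as RB160 less NA on the log2 scale. For Bnip3 it was -0.88 (adjusted p = 0.00397), with an effect of -0.08 in RB160 libraries and 0.79 in NA libraries. Pfkp gave -0.55 (adjusted p = 0.00397), with 0.00 in RB160 and 0.55 in NA libraries. For Eno2 the value was -0.59 (adjusted p = 0.0314), with -0.73 in RB160 and -0.14 in NA libraries. Pfkl differed by -0.39 (adjusted p = 0.0348), with 0.05 in RB160 and 0.44 in NA libraries. Ldhb gave 0.44 (adjusted p = 0.0204), with -0.85 in RB160 and -1.29 in NA libraries. Pfkfb4 gave 0.76 (adjusted p = 0.00513), with 0.28 in RB160 and -0.47 in NA libraries. The RB160 set holds 1 library of each group, so its values have no replicate within a group.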

How the results depend on the processing

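No member that passed reversed its sign under any alternative run. Without the title-set term, the members called numbered 1 for siIMP2 against siControl, 1 after IL-17, 6 for the average IMP2 siRNA effect, 2 outside exons, 0 for siControl_IL17 against siControl and 0 for the average IL-17 effect. Over all genes, that fit called 1 higher and 0 lower for siControl_IL17 against siControl, and 4 and 0 for the average IL-17 effect. Its numbers for the other comparisons are given above. For siControl_IL17 against siControl, DESeq2 called 2, no filter beyond 1 count 3 and the compared groups alone 2. The same runs called 92, 114 and 63 of all genes higher and 105, 107 and 37 lower. The main fit called 35 and 23. For siIMP2_IL17 against siIMP2, DESeq2 called 1, no filter beyond 1 count 1, uniquely mapped reads 1 and the compared groups alone 4. These runs called 96, 108, 57 and 188 of all genes higher and 74, 71, 28 and 161 lower. The main fit called 47 and 23. With no filter beyond 1 count, the average IL-17 effect had 6 members and the difference of the siRNA effect between sets 10. Over all 20274 genes, 314 were called higher and 360 lower for the first, and 661 and 539 for the second. The main fit called 179 and 194 for the first, and 426 and 286 for the second. Why these counts moved was not tested.

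Leaving out each library in turn gave 15 to 21 members for siIMP2 against siControl, 14 to 21 after IL-17, 0 to 2 for siControl_IL17 against siControl, 0 to 1 for siIMP2_IL17 against siIMP2, 0 for their difference, 21 to 23 for the average IMP2 siRNA effect, 1 to 3 for the average IL-17 effect, 24 to 26 between sets, 2 to 9 for the difference of the siRNA effect between sets, and 10 to 18 outside exons. The count of 2 for siControl_IL17 against siControl came without replicate 3 of siIMP2_IL17, the 1 for siIMP2_IL17 against siIMP2 without replicate 1 or 3 of siControl, the 1 for the average IL-17 effect without replicate 3 of siIMP2, and the 9 without replicate 1 of siControl. Calls over all genes moved in these fits too. The 14 members after IL-17 came without replicate 2 of siControl_IL17. That fit called 1721 genes higher and 1674 lower, against 2289 and 2292 in the full fit. The fit with 9 members called 419 genes more positive and 361 more negative. These counts are not read as results about the members. No paired analysis was run because the labels give no replicate number shared between groups. The replicate numbers used here follow the order of the libraries within each group. The title set, the 1 grouping that the labels do share, is a term in the fits. Depth limits Slc2a3 and Aldoc most, whose standard errors for the average IMP2 siRNA effect were 0.29 on the log2 scale.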
